A study of Homo sapiens with 12 samples.

Results

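The genes described here encode the subunits and assembly factors of the human proteasome. The set was chosen by name, as 43 gene symbols of the PSMA, PSMB, PSMC, PSMD, PSME and PSMG families plus POMP, and every one of them was found by its Ensembl identifier among the 61906 genes of both count tables. They fall into 7 roles: 7 genes of the alpha ring (PSMA1 to PSMA7), 7 of the constitutive beta ring (PSMB1 to PSMB7), 3 of the immunoproteasome (PSMB8 to PSMB10), 6 ATPases of the 19S particle (PSMC1 to PSMC6), 11 of its non-ATPase subunits (PSMD genes), 4 activators (PSME1 to PSME4) and 5 assembly factors (PSMG1 to PSMG4 and POMP). All 43 passed the filter on low counts in both experiments.

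RNA was measured by RNA-seq in MOLM-14 cells, an acute myeloid leukemia cell line of human origin with a rearranged KMT2A gene and a FLT3 internal tandem duplication. In the first experiment cells carried a lentiviral shRNA against DDX5 (shDDX5) or a control shRNA (shControl) and were harvested 96 hours after infection. In the second, cells received 100 nM RX-5902, a small molecule directed at phosphorylated DDX5, or 0.1% DMSO, each for 6 hours. DDX5 is an RNA helicase of transcription and splicing. Each of the 4 groups had 3 libraries that the labels call biological replicates, and no library was shared between the experiments. The labels name a single shRNA against DDX5, a single dose of RX-5902 and a single time within each experiment.

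The proteasome is the protease that degrades ubiquitin-tagged proteins. Alpha rings gate a barrel of beta rings, in which PSMB5, PSMB6 and PSMB7 are the catalytic subunits, and in cells of blood origin or after interferon PSMB8, PSMB9 and PSMB10 can take their places. The 19S particle binds ubiquitin chains, removes them and unfolds substrates with its ATPase ring, while the PSME proteins open the barrel without ATP, and the PSMG proteins and POMP build it. Leukemia and myeloma cells are known for their dependence on this machine, and the transcription factor NFE2L1 is known to raise its genes when its activity falls short.

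Libraries held 17603589 to 20367575 counts. DDX5 had 159, 164 and 161 CPM (counts scaled to a common library size, with TMM factors within an experiment) in shDDX5 cells, against 755, 718 and 730 CPM in shControl cells, a log2 fold change of -2.19. With RX-5902, DDX5 RNA was higher than with DMSO by 0.31 on the log2 scale (edgeR adjusted p = 1.47e-08). Of 10 myeloid markers, 9 passed the filter and CD68 was near 0. In the knockdown 5 rose (LYZ, CD33, MPO, CSF1R and SPI1) and 3 fell (MEIS1 at -2.73, HOXA9 at -1.62 and FLT3 at -0.51 on the log2 scale), and under RX-5902 4 rose and 5 fell. The markers summed to 13940 CPM in shDDX5 cells against 4397 CPM in shControl cells, and to 1258 CPM with RX-5902 against 1448 CPM with DMSO, mostly through LYZ in the knockdown experiment. Markers of B cells, erythroid cells, epithelial cells and fibroblasts summed to at most 7.44 CPM in any library. Markers of T and NK cells summed to 95.9 to 146 CPM in shDDX5, 52.3 to 57.2 CPM in shControl, 23.5 to 26.3 CPM in RX-5902 and 15.4 to 16.3 CPM in DMSO libraries, nearly all from NKG7. The part of these markers in the results was not tested. One library stood apart: the chi-square per gene between shDDX5 replicate 1 and replicates 2 and 3 was 46.3 and 46.4, against 1.68 to 5.93 for the other pairs of replicates. Knockdown counts over the 43 genes, and values of the 14 called with all libraries, are therefore given with and without it. For other genes and lists this was done only in part.

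Promoter sequences are shown for PSMC4 and PSME1, with the largest rises in the knockdown, and for PSMG1 and PSMG4, with the largest falls under RX-5902. Each line gives the 250 bases before the transcription start in RefSeq (GRCh38.p14), 5′ to 3′ on the gene's own strand, in lower case. Capitals mark the core of the antioxidant response element, TGACNNNGC, to which NFE2L1 and NFE2L2 are known to bind, and the core of the interferon-stimulated response element, GAAA followed after any 2 bases by GAAA. The windows are chr19:39970915-39971164 on the plus strand, chr14:24135944-24136193 on the plus strand, chr21:39183452-39183701 on the minus strand and chr6:3258697-3258946 on the plus strand. The RefSeq start of PSMG4 lies 27544 bases inside the gene as the count tables delimit it.
PSMC4: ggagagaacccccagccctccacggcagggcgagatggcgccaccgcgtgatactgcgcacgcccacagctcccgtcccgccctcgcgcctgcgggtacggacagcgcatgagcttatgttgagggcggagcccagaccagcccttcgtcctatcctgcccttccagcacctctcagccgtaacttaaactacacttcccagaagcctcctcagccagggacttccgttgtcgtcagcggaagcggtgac
PSME1: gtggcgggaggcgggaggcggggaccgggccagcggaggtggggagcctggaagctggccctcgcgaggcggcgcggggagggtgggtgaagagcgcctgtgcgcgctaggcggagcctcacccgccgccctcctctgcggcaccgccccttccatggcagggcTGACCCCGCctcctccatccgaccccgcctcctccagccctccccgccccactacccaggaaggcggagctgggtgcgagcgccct
PSMG1: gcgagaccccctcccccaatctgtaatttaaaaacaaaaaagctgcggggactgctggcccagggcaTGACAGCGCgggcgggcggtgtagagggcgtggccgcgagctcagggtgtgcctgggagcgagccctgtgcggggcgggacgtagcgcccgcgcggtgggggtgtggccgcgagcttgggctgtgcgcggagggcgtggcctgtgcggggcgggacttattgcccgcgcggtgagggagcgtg
PSMG4: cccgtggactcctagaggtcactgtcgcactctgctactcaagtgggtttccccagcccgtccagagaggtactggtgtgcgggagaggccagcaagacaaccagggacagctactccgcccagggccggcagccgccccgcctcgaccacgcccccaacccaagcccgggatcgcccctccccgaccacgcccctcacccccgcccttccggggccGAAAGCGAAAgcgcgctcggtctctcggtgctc
PSME1 and PSMG1 each held the antioxidant core once, PSMG4 held the interferon core once and PSMC4 held neither. Both strands were searched, and the cores did not overlap in these windows. RefSeq promoters could be matched for 37 of the 43 genes. A gene was counted once if any of its starts held a core, whereas each start counted separately over all promoters. The shares below are therefore in unlike units, and genes with several starts raise the share of the 37. The antioxidant core was in 11 of them (29.7%), against 10.9% of 35116 promoters in the table: PSMA4, PSMB3, PSMB9, PSMC5, PSMD3, PSMD12, PSME1, PSME2, PSME4, PSMG1 and PSMG2. The interferon core was in 5 (13.5%), against 3.02% of all promoters: PSMA4, PSMB4, PSMB10, PSME2 and PSMG4. These matches describe letters in a window and no binding was measured.

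In shDDX5 cells the proteasome genes moved in both directions, and how many were called depended on shDDX5 replicate 1: 14 of the 43 with all libraries and 31 without it. PSMC4, PSME1, PSMB5, PSMB8, PSMD8, PSMD4 and PSMB7 rose, PSMD7, PSMD1, PSMG1, PSMC1, PSMG4, PSMA7 and PSMC3 fell, and the other 29 did not pass the test with all libraries (edgeR quasi-likelihood test, called at a p under 0.05 after Benjamini-Hochberg adjustment across the whole table). The 7 rises and 7 falls make up 32.6% of the genes, against 56.7% called of all 14463 genes tested, 28.4% higher and 28.3% lower. The median log2 fold change of the 43 was 0.00, as was that of all genes tested. Without shDDX5 replicate 1, 10 genes were higher and 21 lower, or 72.1% of the 43, against 71.4% called of all genes (35.7% in each direction), and the median of the 43 was -0.09, against 0.00 over all genes.

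Under RX-5902 nearly all of them were lower. Falls were called for 36 of 43 (83.7%), against 31.9% of all 13941 genes tested, and 1 rise was called, against 32.2% higher over all genes (64.1% called in either direction). The median was -0.26 on the log2 scale, against 0.01 over all genes. In a fit of all 12 libraries 18 falls were called (41.9%, against 19.8% of all genes). Fewer falls were called in every role. They went from 10 to 5 in the non-ATPases, 6 to 4 in the alpha ring, and 5 to 2 in both the constitutive beta ring and the ATPases. Among the falls not called there were those of PSMB6, PSMB9, PSMB10, PSME1 and POMP. In bulk libraries a smaller share of expressing cells and less RNA per cell cannot be told apart. Most falls were small: only PSMG4 fell by more than 2-fold, and the next were PSMG1 and PSME3. The 3 libraries with RX-5902 had medians of -0.28, -0.27 and -0.26 relative to the mean of the DMSO libraries.

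**Figure D1:**
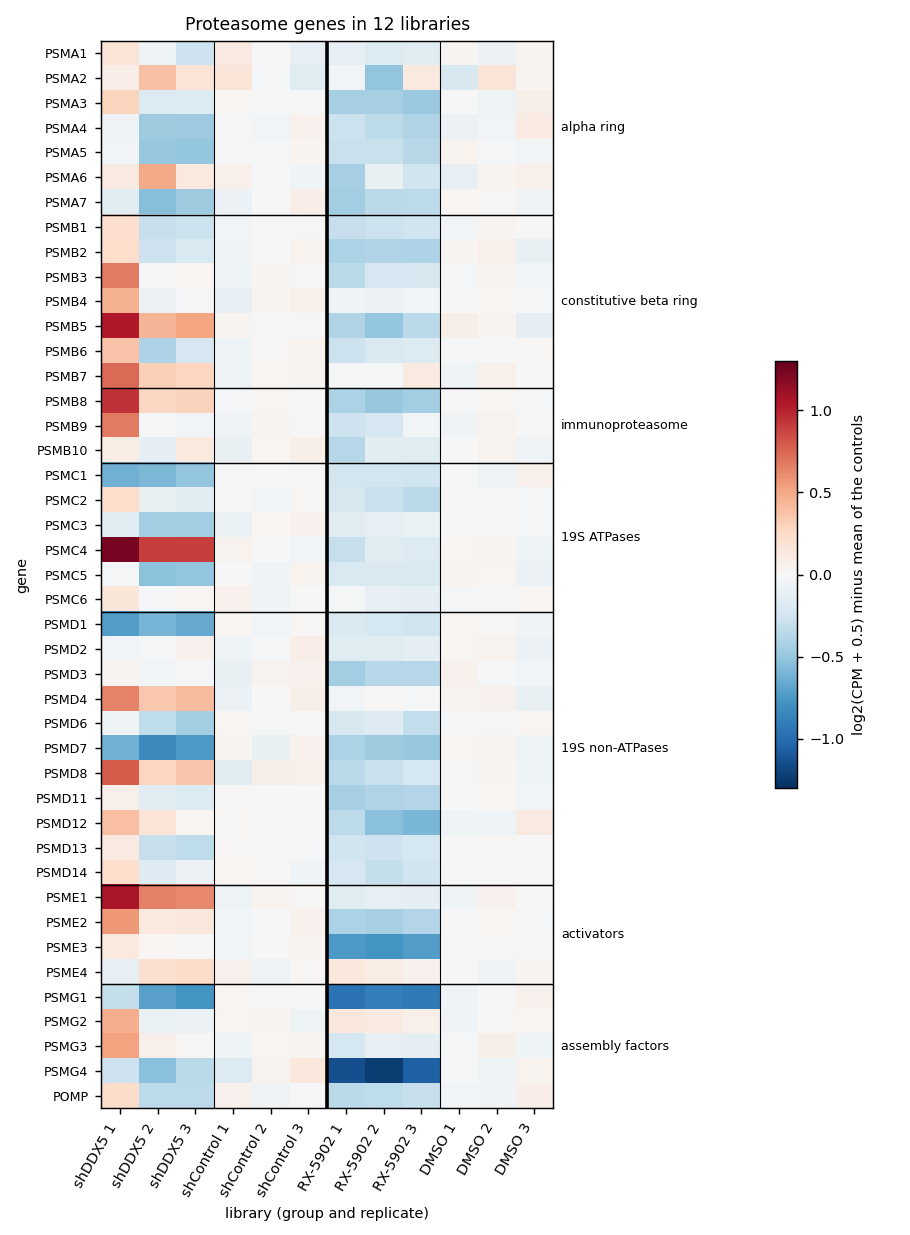
Level of each of the 43 genes (rows, grouped by role) in each of the 12 libraries (columns), as log2(CPM + 0.5) minus the mean of the 3 control libraries of the same experiment (shControl left of the thick line, DMSO right of it). The 3 RX-5902 columns are blue in most rows, with medians of -0.28 to -0.26, while shDDX5 replicate 1 (median 0.18) is redder than replicates 2 and 3 (medians -0.09 and -0.07).

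The alpha ring had 1 fall and no rise among 7 genes in the knockdown (14.3% lower, against 28.3% of all genes) and 6 falls under RX-5902 (85.7%, against 31.9%). The ring had 5 falls and 1 rise in the knockdown without shDDX5 replicate 1 (71.4% lower, against 35.7% of all genes). PSMA7, an outer-ring subunit, had 131, 97.8 and 104 CPM in shDDX5 cells against 137, 144 and 153 CPM in shControl cells. All shDDX5 values lay below all shControl values, with a log2 fold change of -0.38 (SE 0.12, edgeR adjusted p = 0.0268). Without shDDX5 replicate 1 it was -0.51. With RX-5902, PSMA7 had 127, 137 and 138 CPM against 178, 176 and 169 CPM with DMSO, again without overlap (log2 fold change -0.38, SE 0.04, edgeR adjusted p = 8.23e-10). The call for PSMA7 in the knockdown was lost in 5 of 14 alternative settings, all of them leaving out 1 library: shControl replicate 1, 2 or 3, or shDDX5 replicate 2 or 3. The other alpha genes had log2 fold changes between -0.33 (PSMA5) and 0.30 (PSMA2) in the knockdown, none called, and PSMA3, PSMA4, PSMA5, PSMA6 and PSMA1 fell under RX-5902, by 0.45 for PSMA3 and 0.15 for PSMA1 at the ends of that range. PSMA2 was not called in either experiment and lay at 0.937 to 1.92 CPM across the libraries, the lowest of the 43 in each.

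The constitutive beta ring carries the catalytic sites. PSMB5, the chymotrypsin-like subunit and the main target of bortezomib, had 199.6, 132 and 138 CPM in shDDX5 cells against 99.4, 95.3 and 96.1 CPM in shControl cells. Every shDDX5 library was above every shControl library, and replicate 1 was the highest (log2 fold change 0.69, SE 0.15, edgeR adjusted p = 0.00545). The rise of PSMB5 was 0.47 without shDDX5 replicate 1. Under RX-5902 the same gene fell: 77.6, 71.8 and 79.8 CPM against 107, 105 and 94.2 CPM with DMSO, without overlap (log2 fold change -0.42, SE 0.05, edgeR adjusted p = 4.66e-09).

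PSMB7, the trypsin-like subunit, had 291, 215 and 211 CPM in shDDX5 cells against 166, 177 and 179 CPM in shControl cells, with no overlap (log2 fold change 0.46, SE 0.13, edgeR adjusted p = 0.0171), but its call was lost without any 1 of the shControl libraries and with a length correction and replicate block (0.23, edgeR adjusted p = 0.0675). The rise of PSMB7 was 0.29 without shDDX5 replicate 1 and 0.24 with a length correction alone. With RX-5902 it had 144, 144 and 158 CPM against 139.9, 152 and 145 CPM with DMSO, and the groups overlapped (log2 fold change 0.03, edgeR adjusted p = 0.556). PSMB6, the caspase-like subunit, had 87.4, 50.8 and 58.1 CPM in shDDX5 cells against 64.6, 68.4 and 69.5 CPM in shControl cells. Replicate 1 was above and replicates 2 and 3 were below all controls, so that the log2 fold change was -0.05 with all libraries (edgeR adjusted p = 0.852) and -0.31 without shDDX5 replicate 1 (edgeR adjusted p = 3.36e-05). Under RX-5902 PSMB6 fell, with 68.7, 72.6 and 73.5 CPM against 82.6, 83.7 and 84.3 CPM with DMSO (log2 fold change -0.22, SE 0.04, edgeR adjusted p = 4.85e-05). PSMB1, PSMB2, PSMB3 and PSMB4, which have no catalytic activity in this ring, were not called in the knockdown with all libraries (-0.10 to 0.26). Without shDDX5 replicate 1 PSMB1 and PSMB2 were called lower (-0.29 and -0.24, edgeR adjusted p = 1.05e-06 and 8.59e-05). PSMB3 and PSMB4 were then at 0.00 and -0.06, not called. With a length correction PSMB1 was also called lower (-0.27, edgeR adjusted p = 0.0275). Under RX-5902 PSMB2, PSMB1 and PSMB3 fell by 0.40, 0.28 and 0.26, and PSMB4 was not called (-0.06).

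The 3 immunoproteasome subunits were all called lower under RX-5902, against 31.9% of all genes. In the knockdown PSMB8 alone was called, or 33.3% of the 3, against 56.7% of all genes. PSMB8, the interferon-inducible counterpart of PSMB5, had 233, 145 and 148 CPM in shDDX5 cells against 119, 122 and 120.5 CPM in shControl cells. Its shDDX5 values were all above the controls, with replicate 1 far above replicates 2 and 3 (log2 fold change 0.54, SE 0.18, edgeR adjusted p = 0.0295). Without shDDX5 replicate 1 the rise was 0.28 (SE 0.05, edgeR adjusted p = 3.66e-06), and the call was lost when any 1 shControl library was left out (edgeR adjusted p = 0.0841 to 0.102). With RX-5902 PSMB8 had 113, 106 and 111 CPM against 150.0, 153 and 148 CPM with DMSO, without overlap (log2 fold change -0.45, SE 0.04, edgeR adjusted p = 1.03e-11).

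PSMB9, the counterpart of PSMB6, had 41.6, 25.4 and 25.1 CPM in shDDX5 cells against 24.9, 26.4 and 26.0 CPM in shControl cells. Only replicate 1 stood above the controls, and no change was called (log2 fold change 0.25, edgeR adjusted p = 0.287; -0.03 without replicate 1). Under RX-5902 it had 23.1, 24.1 and 27.4 CPM against 27.2, 28.99 and 27.9 CPM with DMSO, overlapping at 1 library, and was called lower (log2 fold change -0.17, SE 0.07, edgeR adjusted p = 0.0216), a call lost in 7 of 14 alternatives, among them the removal of DMSO replicate 2 or of RX-5902 replicate 1 or 2. PSMB10, the counterpart of PSMB7, had 41.2, 35.3 and 42.1 CPM in shDDX5 cells against 35.9, 39.2 and 40.6 CPM in shControl cells, which overlapped (log2 fold change 0.04, edgeR adjusted p = 0.775). With RX-5902 it had 32.2, 37.9 and 37.5 CPM against 42.0, 43.1 and 40.5 CPM with DMSO, without overlap (log2 fold change -0.22, SE 0.06, edgeR adjusted p = 0.00152). The genes PSMB8 and PSMB9 lie on opposite strands and share 139 exon bases. PSMB8 also shares 602 exon bases (17.3% of its own) with PSMB8-AS1 on the opposite strand, and PSMB9 shares 174 with PSMB8-AS1 on the same strand. For PSMB10, 39.4% of the exon bases are shared with a same-strand gene.

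Levels per length show how the exchangeable subunits compare within a library. In TPM (relative transcript abundance, from counts divided by the exon length in the count tables), the ratio of PSMB8 to PSMB5 was 0.496 ± 0.0215 in shDDX5 and 0.555 ± 0.0195 in shControl libraries, and 0.641 ± 0.0214 with RX-5902 and 0.657 ± 0.0393 with DMSO (SD, n = 3 each). All 3 shDDX5 ratios were below the 3 shControl ratios, while the RX-5902 and DMSO ratios overlapped. The ratio of PSMB9 to PSMB6 was 0.203 ± 0.0147 in shDDX5 and 0.166 ± 0.00303 in shControl libraries, without overlap, and 0.150 ± 0.00956 with RX-5902 and 0.145 ± 0.00412 with DMSO, with overlap. The ratio of PSMB10 to PSMB7 was 0.185 ± 0.0321 in shDDX5 and 0.243 ± 0.00649 in shControl libraries, and 0.265 ± 0.0222 with RX-5902 and 0.316 ± 0.0118 with DMSO, without overlap in both cases. These ratios were not tested, and their size depends on the transcript length assumed: with the length of a principal transcript, PSMB8 over PSMB5 was 1.28 ± 0.0556 in shDDX5 and 1.43 ± 0.0505 in shControl libraries.

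**Figure D2:**
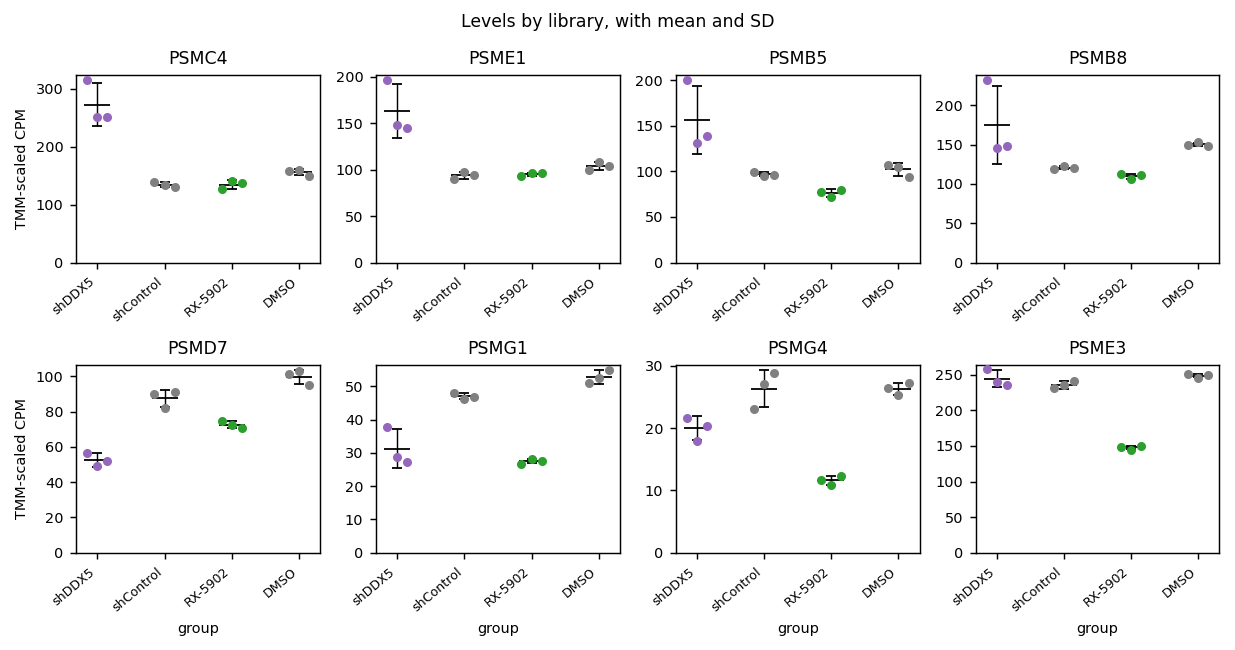
TMM-scaled CPM (vertical axes from 0) of 8 genes in the 4 groups (horizontal axes); points are libraries in the order of replicates 1 to 3, the wide dash is the mean and the bars are 1 SD over 3 libraries. PSMC4, PSME1, PSMB5 and PSMB8 lie higher in shDDX5 than in shControl libraries with replicate 1 at the top, while PSMG1, PSMG4 and PSME3 lie lower with RX-5902 than with DMSO.

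Within the ATPase ring of the 19S particle the knockdown split the genes. PSMC4 (chr19:39971165-39981764) had 315, 251 and 251 CPM in shDDX5 cells against 138, 133 and 130.5 CPM in shControl cells. The groups lay far apart, and the 2.03-fold rise was the largest among the 43 genes (log2 fold change 1.02, SE 0.11, edgeR adjusted p = 0.000111), at 0.90 without shDDX5 replicate 1. PSMC1 (chr14:90256527-90275429) moved the other way, with 43.6, 44.8 and 47.2 CPM in shDDX5 cells against 66.4, 67.8 and 68.2 CPM in shControl cells, also without overlap (log2 fold change -0.58, SE 0.08, edgeR adjusted p = 0.000347).

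PSMC1 shares 76.1% of its exon bases with NRDE2 on the opposite strand and has 13 pseudogenes in the tables, which together drew 4.27% as many counts, so its value is uncertain. PSMC3 fell by 0.34 in the knockdown, and PSMC2 and PSMC6 were at 0.00 and 0.05. Without shDDX5 replicate 1 PSMC3 was at -0.46, and PSMC2 was called lower at -0.13. PSMC5 was at -0.34 without a call (edgeR adjusted p = 0.0653), but was called at -0.53 without shDDX5 replicate 1 (edgeR adjusted p = 4e-10) and at -0.34 with a length correction (edgeR adjusted p = 0.0399). The ATPases encode neighbours in a ring with 1 copy of each. Under RX-5902 5 of the 6 fell (83.3%, against 31.9% of all genes), and PSMC6 was not called (-0.08). The falls were by 0.29 (PSMC2), 0.25 (PSMC1), 0.21 (PSMC4), 0.20 (PSMC5) and 0.11 (PSMC3).

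Of the 11 non-ATPase subunits, 2 rose and 2 fell in the knockdown (36.4% called, against 56.7% of all genes). Without shDDX5 replicate 1, 2 rose and 6 fell (72.7% called, against 71.4% of all genes). Under RX-5902 10 fell (90.9%, against 31.9%). PSMD7, the scaffold partner of the deubiquitinase PSMD14, had 56.6, 49.2 and 52.0 CPM in shDDX5 cells against 90.1, 82.2 and 90.9 CPM in shControl cells, without overlap (log2 fold change -0.74, SE 0.09, edgeR adjusted p = 0.000215). It also fell under RX-5902, at 74.9, 72.3 and 70.8 CPM against 101, 103 and 95.3 CPM with DMSO (log2 fold change -0.46, SE 0.04, edgeR adjusted p = 6.9e-11). An unnamed gene on the opposite strand shares 31.2% of its exon bases. PSMD1, a large scaffold of the base, had 107, 116 and 112 CPM in shDDX5 cells against 180.0, 172 and 179 CPM in shControl cells, again without overlap (log2 fold change -0.66, SE 0.08, edgeR adjusted p = 0.000182), and fell by 0.23 under RX-5902.

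The 2 rises were in PSMD4, a ubiquitin receptor, and PSMD8, a lid subunit. PSMD4 had 316, 256 and 267 CPM in shDDX5 cells against 190.1, 202 and 212 CPM in shControl cells, without overlap (log2 fold change 0.47, SE 0.10, edgeR adjusted p = 0.00479). The rise of PSMD4 was 0.37 without shDDX5 replicate 1. PSMD8 had 322, 226 and 239.6 CPM in shDDX5 cells against 169, 197 and 195 CPM in shControl cells, also without overlap (log2 fold change 0.49, SE 0.14, edgeR adjusted p = 0.019), and its call was lost without any 1 of the shControl libraries (edgeR adjusted p = 0.0512 to 0.0935). The rise of PSMD8 was 0.31 without shDDX5 replicate 1. Under RX-5902 PSMD8 fell by 0.29 and PSMD4 was the only subunit of its role not called (-0.01). The largest fall of the role under RX-5902 was that of PSMD12, a lid subunit, with 76.2, 66.3 and 64.1 CPM against 92.8, 92.8 and 105 CPM with DMSO, without overlap (log2 fold change -0.49, SE 0.05, edgeR adjusted p = 1.34e-09). In the knockdown PSMD12 was not called, at 129, 110.2 and 100.2 CPM in shDDX5 cells against 99.0, 96.5 and 99.3 CPM in shControl cells, although these groups did not overlap (log2 fold change 0.20, edgeR adjusted p = 0.127).

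**Figure D3:**
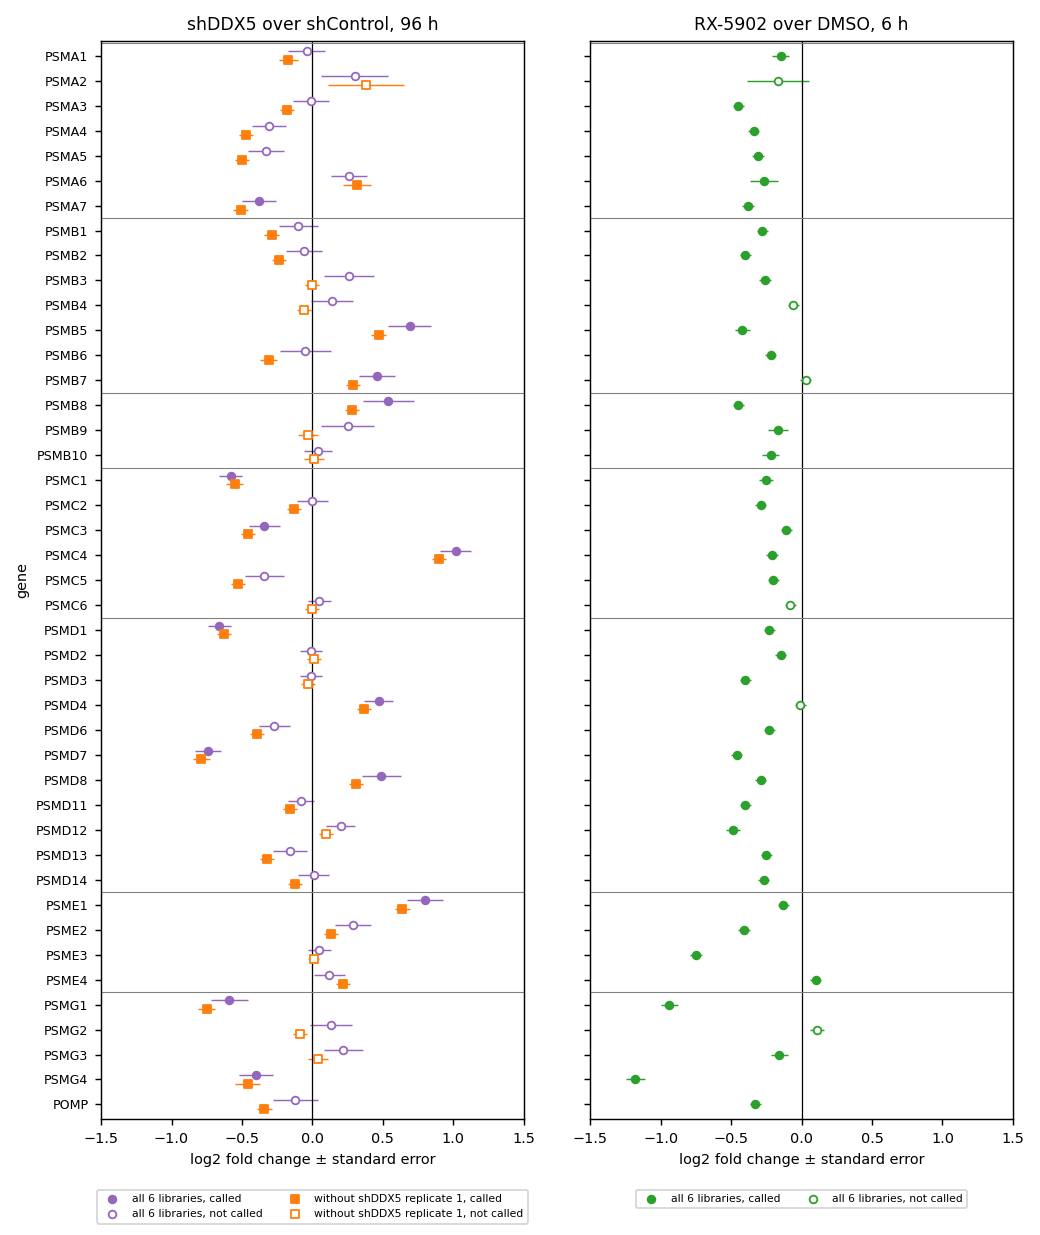
Log2 fold change (horizontal axes, bars are the standard error) of each gene, by role from top to bottom as alpha ring, constitutive beta ring, immunoproteasome, ATPases, non-ATPases, activators and assembly factors. Left, shDDX5 over shControl with all 6 libraries (circles) and without shDDX5 replicate 1 (squares); right, RX-5902 over DMSO; filled symbols are called at an adjusted p under 0.05. The left panel spans -0.74 (PSMD7) to 1.02 (PSMC4) with all libraries, while 40 of the 43 values in the right panel are below 0.

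All 4 activators had values above 0 in the knockdown, and 1 was called (25.0%, against 56.7% of all genes). Without shDDX5 replicate 1, 3 were called, all of them higher (75.0%, against 35.7% called higher of all genes). PSME1, which with PSME2 forms the interferon-inducible cap, had 197, 148 and 145 CPM in shDDX5 cells against 89.9, 96.9 and 94.7 CPM in shControl cells, without overlap (log2 fold change 0.80, SE 0.13, edgeR adjusted p = 0.000929), and 0.64 without shDDX5 replicate 1. PSME2 had 183, 136 and 137 CPM in shDDX5 cells against 121, 123 and 129 CPM in shControl cells, which did not overlap, yet it was not called (log2 fold change 0.29, SE 0.13, edgeR adjusted p = 0.0781); without shDDX5 replicate 1 it was called at 0.13 (edgeR adjusted p = 0.0135). Counts of 6 PSME2 pseudogenes were 2.84% of its own.

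Under RX-5902 PSME2 fell, with 81.5, 80.4 and 83.3 CPM against 108, 110.3 and 107 CPM with DMSO, without overlap (log2 fold change -0.41, SE 0.04, edgeR adjusted p = 1.78e-10). PSME1 fell less, with 93.2, 96.2 and 96.0 CPM against 99.5, 108 and 104 CPM with DMSO (log2 fold change -0.13, SE 0.04, edgeR adjusted p = 0.0104), and this call was lost in 4 of 14 alternatives, among them the removal of DMSO replicate 2. PSME3, the nuclear activator, had the third largest fall of all 43 genes under RX-5902, at 148, 145 and 150.1 CPM against 251, 246 and 249 CPM with DMSO, far from overlapping (log2 fold change -0.75, SE 0.04, edgeR adjusted p = 6.28e-18). In the knockdown PSME3 stood at 258, 239.5 and 236 CPM in shDDX5 cells against 231, 236 and 242 CPM in shControl cells, and the groups overlapped (log2 fold change 0.05, edgeR adjusted p = 0.598). PSME4, a nuclear activator of histone degradation, was the only gene called higher under RX-5902, at 147, 144 and 139.9 CPM against 135, 130.3 and 138 CPM with DMSO (log2 fold change 0.10, SE 0.04, edgeR adjusted p = 0.0353), and that call was lost in 11 of 14 alternatives, among them the removal of DMSO replicate 1 or 2 or of RX-5902 replicate 1 or 2. In the knockdown PSME4 had 114, 143 and 145 CPM in shDDX5 cells against 128, 118 and 125 CPM in shControl cells; replicate 1 was the lowest, and the gene was not called with all libraries (0.12, edgeR adjusted p = 0.363), but was called without replicate 1 (0.22, edgeR adjusted p = 0.000152), with a correction for gene length (0.28, edgeR adjusted p = 0.00575) and with that correction and a replicate block (0.28, edgeR adjusted p = 0.0192).

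Among the assembly factors, a member of each chaperone pair of the alpha ring fell in both experiments. PSMG4, which pairs with PSMG3, had 11.6, 10.9 and 12.4 CPM with RX-5902 against 26.4, 25.3 and 27.3 CPM with DMSO, a 2.26-fold fall without overlap (log2 fold change -1.18, SE 0.07, edgeR adjusted p = 9.2e-16). In the knockdown it had 21.7, 17.9 and 20.4 CPM in shDDX5 cells against 23.1, 27.1 and 28.8 CPM in shControl cells, without overlap (log2 fold change -0.40, SE 0.12, edgeR adjusted p = 0.0189), but this call was lost in 5 of 14 alternatives, among them a correction for gene length (-0.22, edgeR adjusted p = 0.235) and the removal of shControl replicate 2 or 3 or of shDDX5 replicate 2.

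PSMG1, which pairs with PSMG2, had 26.8, 28.3 and 27.6 CPM with RX-5902 against 51.0, 52.5 and 55.0 CPM with DMSO, a 1.92-fold fall without overlap (log2 fold change -0.94, SE 0.06, edgeR adjusted p = 3.09e-16). In shDDX5 cells it had 37.9, 28.7 and 27.2 CPM against 48.0, 46.2 and 46.9 CPM in shControl cells, again without overlap (log2 fold change -0.59, SE 0.13, edgeR adjusted p = 0.0048). The log2 fold change of PSMG1 was -0.75 without shDDX5 replicate 1. Of their partners, PSMG2 was not called in either experiment (0.13 in the knockdown and 0.11 under RX-5902), and PSMG3 was called only under RX-5902 (-0.16). POMP, the maturation factor that joins the assembling rings, had 251, 168 and 167 CPM in shDDX5 cells against 221, 206 and 211 CPM in shControl cells, with replicate 1 above and replicates 2 and 3 below the controls (log2 fold change -0.12, edgeR adjusted p = 0.541; -0.34 and edgeR adjusted p = 9.73e-08 without replicate 1). With RX-5902 POMP had 116, 118 and 120.0 CPM against 144, 143 and 157 CPM with DMSO, without overlap (log2 fold change -0.33, SE 0.04, edgeR adjusted p = 2.77e-08).

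Counts of calls in the knockdown depended on single libraries. Without shDDX5 replicate 1, the falls by role were 5 of 7 in the alpha ring, 3 of 7 in the constitutive beta ring, 4 of 6 ATPases, 6 of 11 non-ATPases and 3 of 5 assembly factors, with none among the immunoproteasome genes and activators. Of all genes, 35.7% were called lower in that fit. The log2 fold change there was -0.79 for PSMD7, -0.63 for PSMD1, -0.55 for PSMC1 and -0.46 for PSMG4. Without shControl replicate 2, 8 genes were called (45.2% of all genes), and without shControl replicate 3 also 8 (44.9%). Of the 43 genes, 10 lay higher and 10 lower in shDDX5 cells with no overlap between the groups, against 32.2% and 34.0% of all genes, and 35 lay lower and 2 higher with RX-5902, against 33.4% and 34.0%.

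In shDDX5 replicate 1, 37 of the 43 genes stood above the mean of replicates 2 and 3, with a median of 0.37 in log2(CPM + 0.5), against 0.00 over all genes tested. The median was 0.67 for the immunoproteasome genes, 0.51 for the constitutive beta ring, 0.48 for the assembly factors, 0.37 for the alpha ring, 0.32 for the ATPases and 0.27 for the non-ATPases and the activators. Short genes in general were higher in that library: all genes under 2500 bases of exon had a median of 0.25 and those of 10000 bases or more a median of -0.32. Proteasome genes lay above all genes in each class, at 0.46 under 2500 bases and 0.04 at 10000 bases or more. Mitochondrial transcripts took 10.3% of the counts in that library, against 7.71% and 8.09% in the other shDDX5 libraries. The part of library quality in these differences was not tested.

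**Figure D4:**
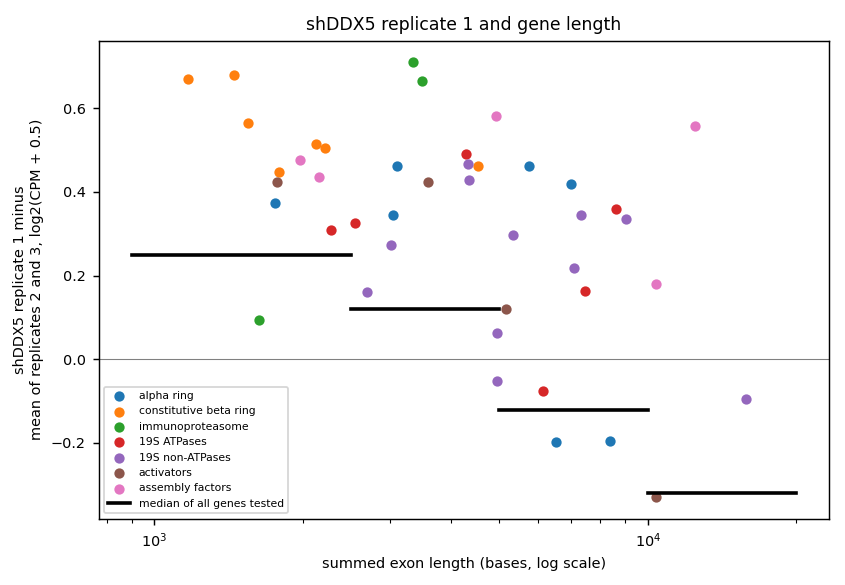
Difference between shDDX5 replicate 1 and the mean of shDDX5 replicates 2 and 3 in log2(CPM + 0.5) (vertical axis) against summed exon length in bases (horizontal axis, log scale) for the 43 genes, coloured by role; black bars are the median of all genes tested in 4 length classes. Most of the 43 points lie above the bars, with medians of 0.46, 0.43, 0.26 and 0.04 from the shortest to the longest class, against 0.25, 0.12, -0.12 and -0.32 for all genes.

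Calls in both experiments were set side by side. All 7 genes that fell in the knockdown also fell under RX-5902, whereas 42.5% of all genes called lower in the knockdown did so. Of the 7 that rose in the knockdown, 5 fell under RX-5902 (PSMB8, PSMB5, PSME1, PSMD8 and PSMC4), against 26.5% of all genes called higher, and PSMD4 and PSMB7 were not called. Of the 29 not called in the knockdown, 24 (82.8%) fell under RX-5902, against 30.6% of all such genes. None of the 43 rose in both.

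The difference between the responses was tested as the knockdown change minus the RX-5902 change in a fit of all 12 libraries, although the experiments differ in time and agent. It was called above 0 for 15 genes and below 0 for 3, against 52.7% of all 15386 genes tested (24.1% above and 28.6% below), with a median of 0.27 against -0.05 over all genes. PSMC4 had the largest difference (1.22, SE 0.13, edgeR adjusted p = 2.8e-06), followed by PSMB5 (1.09, SE 0.19, edgeR adjusted p = 0.000207), PSMB8 (0.98, SE 0.20, edgeR adjusted p = 0.000981) and PSME1 (0.91, SE 0.15, edgeR adjusted p = 0.000132). PSME3 (0.79) and PSMG4 (0.77) also had positive differences, with 0.05 and -0.40 in the knockdown and -0.75 and -1.18 under RX-5902. PSMD1 (-0.45), PSMC1 (-0.34) and PSMD7 (-0.30, edgeR adjusted p = 0.0257) fell more in the knockdown, and the call for PSMD7 was lost in 9 of 18 alternatives, 8 of which left out 1 library. With a correction for gene length the difference of PSMD1 was -0.13 and not called (edgeR adjusted p = 0.3). Without shDDX5 replicate 1, 18 differences were above 0 and 8 below (60.4% of all genes called, 28.4% above and 32.0% below), and the median of the 43 was 0.15.

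Further genes of the proteasome, from a list of 15 of which 13 were tested, gave 3 rises and 3 falls in the knockdown (46.2% called, against 56.7% of all genes). The falls were in SEM1, a small lid subunit (-1.03, SE 0.18, edgeR adjusted p = 0.00167), and in UCHL5 and USP14, the deubiquitinases that dock on the 19S particle (-1.01 and -0.99, edgeR adjusted p = 2.79e-05 and 4.11e-05). UCHL5 had 84.8, 77.1 and 75.9 CPM in shDDX5 cells against 162, 156 and 159 CPM in shControl cells. Under RX-5902 9 of the 13 fell (69.2%, against 31.9% of all genes) and 2 rose, with UCHL5 at -0.54, PSMF1, an inhibitor of the barrel, at -0.38, and AKIRIN2, which brings proteasomes into the nucleus, at 0.41. The thymus and testis subunits PSMB11 and PSMA8 were at or near 0 in every library.

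The 8 genes around NFE2L1 gave 3 rises and 4 falls in each experiment (87.5% called, against 56.7% of all genes in the knockdown and 64.1% under RX-5902). NFE2L1 itself had 49.8, 68.9 and 74.7 CPM in shDDX5 cells against 128, 134 and 135 CPM in shControl cells, without overlap (log2 fold change -1.04, SE 0.14, edgeR adjusted p = 0.000448), and was 0.12 lower with RX-5902 than with DMSO (edgeR adjusted p = 0.0125). SYVN1, a ubiquitin ligase of the endoplasmic reticulum, rose by 0.93 and NFE2L2, a related factor of the oxidative stress response, by 0.55 in the knockdown. Under RX-5902 NFE2L2 rose by 0.58, while NGLY1 and DDI2, the enzymes that trim NFE2L1 into its active form, fell by 0.54 and 0.53. Of the 9 tested genes of ubiquitin, its activating enzymes and its shuttle receptors reported here, 2 rose and 2 fell in the knockdown (4 of 9 called, against 56.7% of all genes). The largest changes were those of ZFAND2A (1.34) and the shuttle receptors UBQLN4 (-1.27) and UBQLN2 (0.53). Without shDDX5 replicate 1, 3 rose and 4 fell (77.8% called, against 71.4% of all genes). Of 10 tested under RX-5902, 3 rose and 5 fell (8 of 10 called, against 64.1% of all genes), led by UBQLN4 (-0.53), ZFAND5 (0.31), and UBA1 and RAD23B (-0.24 each).

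Of 8 signalling genes reported here that are known to act upstream of the immunoproteasome genes, 6 rose in the knockdown (75.0%, against 28.4% of all genes) and 7 rose under RX-5902 (87.5%, against 32.2%). JAK1, a kinase of interferon receptors, was at -0.30 without a call in the knockdown (edgeR adjusted p = 0.052) and was called lower without shDDX5 replicate 1 (-0.19, edgeR adjusted p = 0.00163). IRF1, a transcription factor induced by interferon, had 29.6, 22.9 and 26.3 CPM in shDDX5 cells against 15.1, 15.1 and 14.1 CPM in shControl cells, without overlap (log2 fold change 0.83, SE 0.11, edgeR adjusted p = 0.000374), and rose by 0.43 under RX-5902 (edgeR adjusted p = 1.8e-07). STAT2, a factor that relays interferon signals, rose by 1.53 in the knockdown and by 0.85 under RX-5902, and the kinase JAK2 by 0.83 and 0.53; IFNGR2, an interferon receptor chain, rose by 0.77 under RX-5902. Beside these, PSMB8 rose by 0.54 and fell by 0.45, and PSMB9 and PSMB10 were called only under RX-5902, as falls.

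Levels between genes were compared per length. In shControl cells the constitutive beta genes PSMB4 and PSMB3 had 432 ± 37.5 and 417 ± 21.1 TPM, which did not differ beyond their spread, and PSMB1 had 357 ± 14 TPM (SD, n = 3). Medians over the ring were 333 TPM for the constitutive beta genes and 89.3 TPM for the alpha genes in shControl cells. The ratio of the ring medians, taken in each library and averaged over the 3, was 3.73 in shControl and 2.96 in DMSO cells. PSMA2, PSMA6 and PSMA1 had 0.45, 6.07 and 38.1 TPM in shControl cells. Each shares exon bases with a same-strand gene in the tables, 1445 bases for PSMA2, 919 for PSMA6 and 814 for PSMA1, and how reads in shared exons were counted was not given in the sources used here.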

How the data were processed

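The authors deposited a table of raw counts for each experiment, in which every library has its column, with exon coordinates on GRCh38.p13, per the file headers and the submitters' processing notes. Reads were trimmed, aligned and counted with tools that include STAR 2.7.9a and featureCounts of Subread 2.0.3, per the same notes. The strand setting, the annotation release and the use of multi-mapped reads are not given in the sources used here, so genes that overlap or have near-identical copies are uncertain. Groups and replicate numbers came from the labels.

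Each experiment was fitted on its 6 libraries with edgeR 4.0.16 in R 4.3.3: default expression filter, TMM factors, quasi-likelihood F test, two-sided, and Benjamini-Hochberg adjustment over all genes tested, called under 0.05. Standard errors (SE) were derived from the F statistic. The difference was a contrast of 4 group means over 12 libraries. TPM used the deposited exon length, or, as an alternative, the longest principal transcript of GENCODE release 29. The fits were also run on simulated counts, with the same dispersion for every gene and no library set apart. That run does not cover a library such as shDDX5 replicate 1. Alternatives were RLE factors, DESeq2 1.42.0, other filters, a length correction, a replicate block and each library left out.

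The genes and lists were chosen with earlier results of these data known. Library values are given for the catalytic and immunoproteasome subunits, PSME1, PSME2, PSME4, POMP and up to 6 called genes with the largest change in each direction and comparison, and of each further list up to 3 called genes per experiment, plus NFE2L1 and IRF1; other values are given as ranges, counts or fold changes. Some genes of the further lists are not reported here, and the counts of those lists leave them out. The p-values measure the spread between libraries that the labels call biological replicates.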

Additional observations from a re-analysis of the deposited data

How the results depend on the processing

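Of the 43 genes, 14 were called in the knockdown (56.7% of all genes), and 8 to 31 when 1 library was left out. Of all genes, 45.2% and 44.9% were called without shControl replicate 2 or 3 (8 of the 43 in each). Without shDDX5 replicate 1 (31 of the 43) the share was 71.4%. Under RX-5902 37 were called (64.1% of all genes), and 32 to 36 with 1 library left out. With DESeq2 32 were called (56.4% of all genes), and 18 when all 12 libraries shared 1 fit (44.3%). All 18 and all 32 of these were lower. The RX-5902 median of -0.26 was -0.28 with no filter on low counts, -0.22 in the fit of all 12 libraries and -0.28 to -0.25 with 1 library left out. Differences were called for 18 genes (52.7% of all genes), and for 15 to 26 with 1 library left out. For the remaining fits with 1 library left out the share of all genes is not given here. The cause of these shifts was not tested.

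The labels do not say whether libraries with the same replicate number were prepared together. Deviations of same-numbered libraries from their group means correlated at -0.0741 to 0.0345 in the knockdown and at -0.041 to 0.016 in the RX-5902 experiment. No shared shift was seen, but such correlations cannot show that the libraries were unpaired. With a replicate block, 13 genes were called in the knockdown, 35 under RX-5902 and 17 for the difference. The shares of all genes called with the block are not given here, so these counts cannot be set against them.

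Among the named genes, signs turned in 4 cases, and none of the 4 was called with all libraries. PSMB10 in the knockdown was at -0.19 with a length correction, at -0.2 with it and the replicate block, and at -0.02 to 0.11 with 1 library left out; with 1 library left out PSMB9 was at -0.03 to 0.38 and PSMB6 at -0.31 to 0.11, and PSMB7 under RX-5902 was at -0.01 to 0.05.

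Principal transcript lengths were chosen as an alternative after seeing the data. With them the ratios in shDDX5, shControl, RX-5902 and DMSO cells were 1.28, 1.43, 1.66 and 1.7 for PSMB8 over PSMB5, 0.511, 0.416, 0.378 and 0.366 for PSMB9 over PSMB6, and 0.135, 0.178, 0.194 and 0.232 for PSMB10 over PSMB7. The ratio of ring medians, beta over alpha, averaged over libraries, was then 4.42 in shControl and 3.48 in DMSO cells, and 1.11 and 0.945 in CPM without length. Within a library only the length used differs between these settings. The order of the groups in each pair was the same with either length.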
